A study of Mus musculus with 12 samples.

Results

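Glutathione is made, recycled, spent and exported by a small set of enzymes and carriers, and 10 of their genes were followed here in CD4 T cells of the mouse kidney. The genes were Slc7a11, Gclc, Gclm and Gss (supply and synthesis), Gsr (recycling), Gpx1 and Gpx4 (peroxidases), Gstp1 and Gsto1 (transferases) and Abcc1 (export). They were picked by name, as the rows of the deposited table whose Ensembl identifiers carry these symbols, and not by their values. All 10 were found among 52632 genes. Every member also averaged 1 FPKM or more across libraries (fragments scaled to transcript length and to the fragments of the library, so that levels of different genes can be compared per length) and so were among the 19288 genes tested. None of their 120 values was listed at 0.

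Glutathione is a tripeptide of glutamate, cysteine and glycine, and the main small thiol that keeps a cell reduced. Cystine enters through the antiporter xCT (Slc7a11 with its heavy chain Slc3a2), glutamate-cysteine ligase (catalytic subunit Gclc, modifier subunit Gclm) makes the rate-limiting bond, and glutathione synthetase (Gss) adds glycine. Glutathione peroxidases oxidise it while reducing peroxides, glutathione reductase (Gsr) restores it with NADPH, transferases couple it to electrophiles, and Abcc1 (MRP1) pumps the conjugates out. Many of these genes are textbook targets of the transcription factor NRF2, which KEAP1 holds at low levels, and activated T cells are known to need newly made glutathione.

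Total RNA was sequenced in 12 libraries, 3 for each of 4 groups (WT controls, injured WT, KO controls and injured KO). WT were C57BL6/J mice bought from a supplier, and KO were mice lacking Keap1 in CD4 cells (labelled CD4 Keap1 KO) that were bred in house, so genotype and source of the mice cannot be told apart. IRI stands for ischemia-reperfusion injury, in which both kidneys were without blood flow for 30 min and were collected 24 h later, and the control groups were separate mice of each genotype. The labels used here name neither the Cre driver and deleted part of Keap1, nor sham surgery, age, sex or separate animals for replicates. The p-values therefore cover variation among the libraries alone, which may be technical.

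The label check and the cell-type check came first. Nqo1, a classical NRF2 target, read 6.85, 4.87 and 7.75 FPKM in KO controls and 6.90, 3.38 and 4.80 in injured KO, against at most 0.543 in any WT library. Keap1 itself was present in all libraries (4.59 to 9.87 FPKM), and after rescaling all 6 KO libraries (4.19 to 6.35) lay below all 6 WT libraries (6.56 to 10.7). It fell in KO averaged over condition by −0.61 ± 0.11 (SE, adjusted p = 0.0484), and did not pass as deposited (−0.34 ± 0.13 SE, adjusted p = 0.0945). A whole-gene value does not check a deletion of unnamed extent. All 10 T cell markers were tested, and their summed level ran from 1504 to 1665 FPKM in WT controls, 725 to 828 in injured WT, 1889 to 2840 in KO controls and 1358 to 1781 in injured KO. In this bulk RNA, fewer cells of a type and less RNA per cell cannot be told apart. The FPKM of a library summed to between 739969 and 2089551, and libraries of one group correlated at a Spearman rho of 0.756 to 0.878 across the genes tested. WT IRI 3 and WT control 3 had the lowest mean rho to the other 11 libraries (0.761 and 0.768), and KO control 1 had the largest rescaling factor (1.34) and the highest summed level of 7 B and plasma cell markers (1697 FPKM). Calls are also given without these 3 libraries, as are differences that turned or moved by over 1.5 times.

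As deposited, KO libraries stood above WT libraries for the median gene tested, with a log2 difference of 0.299 for controls, 0.255 for injured cells and 0.292 for both averaged. Each library was therefore rescaled by its median ratio to the average library, which brought these medians to 0.0142, 0.019 and 0.0353. Differences below are of log2(rescaled FPKM + 1), a scale that understates the change of low genes. They come from limma, with p-values adjusted over all 19288 genes in each comparison and a threshold of 0.05, and a gene is said to have risen or fallen only if it passed. Levels are FPKM as deposited unless said to be rescaled. Those of single libraries are in the order of replicates 1, 2 and 3.

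Averaged over control and IRI, the reductase Gsr, the ligase subunit Gclc and the exporter Abcc1 rose in KO, and no member fell. Averaged over genotype, the cystine carrier Slc7a11, Gsr, Gclc and the transferase Gsto1 rose after IRI. Gclc and Gsr thus rose in both comparisons. Gclm, Gss, Gpx1, Gpx4 and Gstp1 passed the threshold in none of the 7 comparisons. Slc7a11 stood lower in KO, but that difference missed the threshold.

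**Figure D1:**
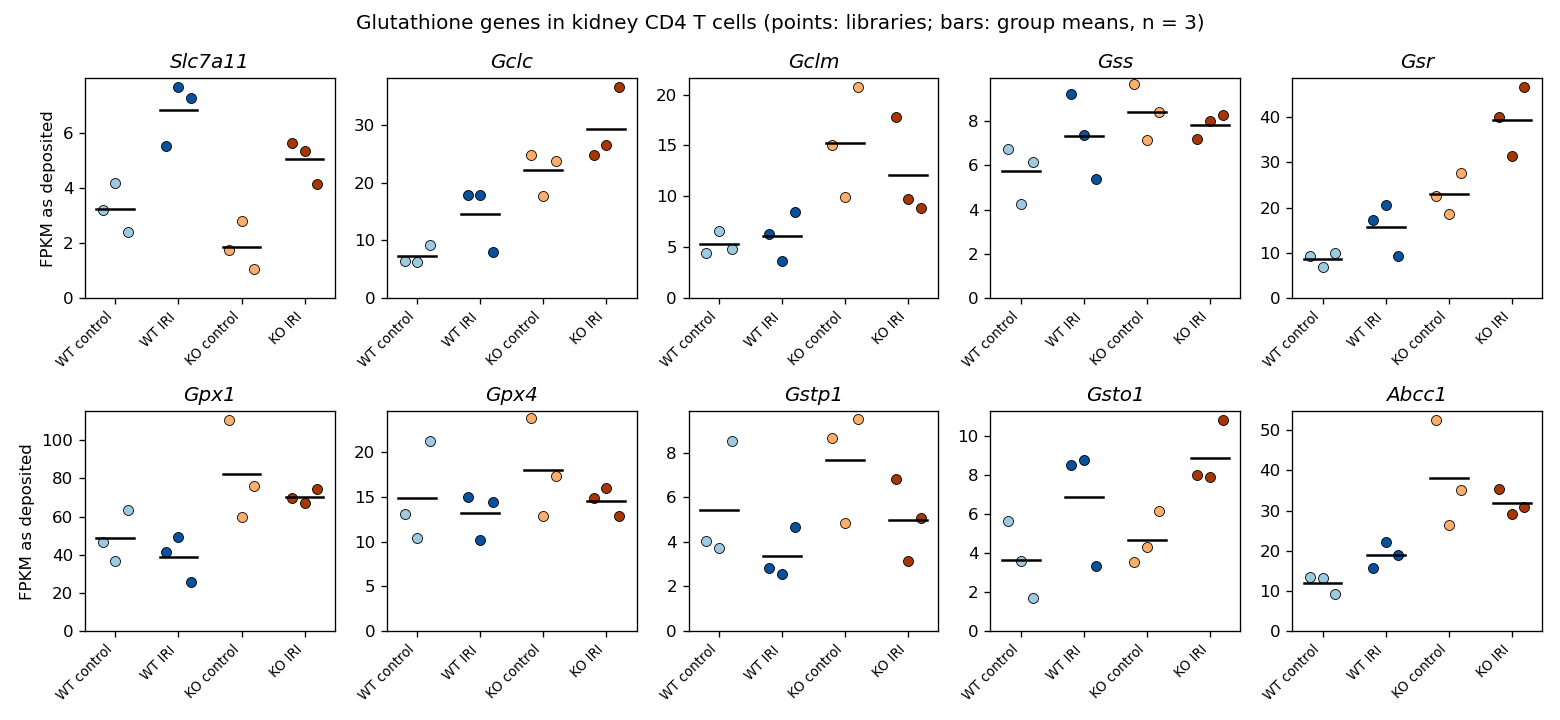
Level of each of the 10 genes (FPKM as deposited, vertical axes from 0) in every library of the 4 groups, with points for libraries and bars for group means (n = 3). Gclc, Gsr and Abcc1 were higher in all 3 KO control libraries than in any WT control library, while Slc7a11 was higher in all 3 IRI libraries of each genotype than in the controls of that genotype. Each of these separations also held after rescaling.

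Slc7a11 (ENSMUSG00000027737.10, GRCm38 chromosome 3, 49892526 to 50443614, minus strand) encodes the transport subunit that exchanges cystine for glutamate. Its mean level over 12 libraries was 4.24 FPKM, the lowest of the 10. The stretch before its transcription start is shown because Slc7a11 alone among the supply and synthesis genes stood lower in KO averaged over condition, and because it holds the core of the amino acid response element, the site that ATF4 is known to bind. The sequence is from RefSeq on GRCm38.p6, chr3:50443614-50443719 on the minus strand, bases −106 to −1 before the start, with matches to TGATGNAA on either strand in capitals.
Slc7a11: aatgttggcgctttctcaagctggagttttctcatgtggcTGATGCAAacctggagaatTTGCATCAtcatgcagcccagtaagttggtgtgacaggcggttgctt
There were 2 matches, facing opposite ways, beginning at −66 and −47. Of the 32851 RefSeq promoter windows of the same length (250 bases before to 50 after a start), 3.97% held a match to TGATGNAA. A match is a description of letters and shows no binding.

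In uninjured WT cells Slc7a11 read 3.20, 4.17 and 2.39 FPKM, and after IRI 5.52, 7.65 and 7.29. In KO cells it read 1.76, 2.79 and 1.04 in controls and 5.64, 5.35 and 4.13 after IRI. Within each genotype every IRI library was above every control library, and KO control 1 and 3 were the lowest of all. Averaged over genotype Slc7a11 rose after IRI by 1.05 ± 0.20 (SE, adjusted p = 0.00745), and as deposited by 1.00 ± 0.18 (SE, adjusted p = 0.00735). It passed in 12 of 12 fits that left out 1 library, with differences of 0.93 to 1.19. Without the 3 libraries that stand apart (KO control 1, WT IRI 3 and WT control 3), the value was 0.86 ± 0.24 (SE, adjusted p = 0.0745) and no longer passed. Neither genotype passed alone, with 0.96 ± 0.28 (SE, adjusted p = 0.0700) in WT and 1.13 ± 0.28 (SE, adjusted p = 0.0739) in KO, and the difference between these responses was 0.18 ± 0.40 (SE, adjusted p = 0.967), or 0.42 ± 0.48 (SE, adjusted p = 0.992) without the 3 libraries. Between genotypes, KO minus WT was −0.72 ± 0.20 (SE, adjusted p = 0.0886), below 0 in controls and after IRI alike, and it passed without KO control 2 (−0.86, adjusted p = 0.0207).

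Gclc (ENSMUSG00000032350.9, chromosome 9, 77754535 to 77794485, plus strand) encodes the catalytic subunit of glutamate-cysteine ligase. WT control libraries read 6.50, 6.21 and 9.13 FPKM and WT IRI libraries 17.9, 17.9 and 7.98. KO control libraries read 24.9, 17.7 and 23.8 and KO IRI libraries 24.9, 26.6 and 36.6. The KO and WT libraries did not overlap in controls or after IRI, WT IRI 3 lay among the WT controls as deposited, and KO IRI 3 was the highest. Averaged over condition Gclc rose in KO by 0.96 ± 0.17 (SE, adjusted p = 0.0443), from 10.9 ± 5.498 to 25.7 ± 6.13 FPKM (SD, n = 6). The call was near the threshold: with 1 library left out the difference stayed at 0.83 to 1.04 but passed in 2 of 12 fits (without WT control 3 or KO control 2), and without the 3 libraries it was 0.92 ± 0.14 (SE, adjusted p = 0.0755). It was 1.25 ± 0.21 (SE, adjusted p = 0.0228) as deposited.

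After IRI Gclc rose in WT by 0.91 ± 0.24 (SE, adjusted p = 0.0437), which became 1.32 ± 0.20 (SE, adjusted p = 0.0265) without the 3 libraries and 0.85 ± 0.30 (SE, adjusted p = 0.157) as deposited. With 1 library left out this call was made in 4 of 12 fits (without WT control 3, WT IRI 3, KO IRI 1 or KO IRI 3). It did not pass in KO (0.48 ± 0.24 SE, adjusted p = 0.349), and the responses of the genotypes differed by −0.43 ± 0.34 (SE, adjusted p = 0.906). Without the 3 libraries this interaction was −0.85 ± 0.27 (SE, adjusted p = 0.960), with an unadjusted p of 0.0183 in limma, and did not pass. Averaged over genotype Gclc rose by 0.69 ± 0.17 (SE, adjusted p = 0.0218), and was lost as deposited (0.62 ± 0.21 SE, adjusted p = 0.103). It passed in 6 of 12 fits with 1 library left out, and was lost without WT control 1 or 2, WT IRI 1 or 2, KO control 1 or KO IRI 3.

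Gclm (ENSMUSG00000028124.15, chromosome 3, 122245557 to 122270732, plus strand) encodes the modifier subunit, which eases feedback inhibition of the catalytic subunit. Part of its promoter window is shown because Gclm is a textbook NRF2 target and this window holds a match to TGACNNNGC, the core of the antioxidant response element. The sequence is from RefSeq on GRCm38.p6, chr3:122245383-122245471 on the plus strand, bases −174 to −86, with the match in capitals.
Gclm: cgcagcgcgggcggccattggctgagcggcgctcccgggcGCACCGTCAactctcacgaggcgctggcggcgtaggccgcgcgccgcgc
The match lies on the other strand (GCNNNGTCA as printed), beginning at −134, and 12.4% of the 32851 windows held a match on either strand.

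Gclm read 4.39, 6.64 and 4.86 FPKM in WT controls and 15.1, 9.92 and 20.7 in KO controls, with every KO library above every WT library. After IRI it read 6.27, 3.64 and 8.44 in WT and 17.8, 9.70 and 8.84 in KO, again without overlap as deposited. On that scale the median gene tested also stood higher in injured KO, and the share of all genes without overlap is not given. After rescaling WT IRI 3 (11.2) stood above 2 of the KO libraries. Averaged over condition the difference was 0.81 ± 0.24 (SE, adjusted p = 0.102) and did not pass, whereas as deposited it did (1.10 ± 0.25 SE, adjusted p = 0.0306). Its difference after IRI was −0.012 ± 0.24 (SE, adjusted p = 0.982) averaged over genotype, and −0.24 ± 0.27 (SE, adjusted p = 0.636) without the 3 libraries. Of its 36-base words, 4.99% also occur in transcripts of other genes, and its exons overlap those of the antisense gene Gm17494 over 4.71% of their length and the same-strand Gm6061 over 3.88%.

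Gss (ENSMUSG00000027610.17, chromosome 2, 155563181 to 155592810, minus strand) encodes glutathione synthetase, the second enzyme of the path. Levels were 6.76, 4.27 and 6.16 FPKM in WT controls, 9.22, 7.36 and 5.38 in injured WT, 9.67, 7.14 and 8.42 in KO controls and 7.21, 8.03 and 8.27 in injured KO. As deposited every KO control library lay above every WT control library (7.14 or more against 6.76 or less). After rescaling the genotypes overlapped in controls and after IRI. KO minus WT was 0.023 ± 0.13 (SE, adjusted p = 0.935) averaged over condition and 0.30 ± 0.15 (SE, adjusted p = 0.170) as deposited. IRI minus control was 0.18 ± 0.13 (SE, adjusted p = 0.396). Gss had the smallest standard errors of the 10. Its exons overlap those of the antisense genes Acss2, Gssos1 and Gssos2 over 6.68%, 5.44% and 6.51% of their length, and whether the counting used strand is not given in the sources used here.

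Gsr (ENSMUSG00000031584.16, chromosome 8, 33652523 to 33698163, plus strand) encodes glutathione reductase, which turns the oxidised disulfide back into glutathione. It was lowest in WT controls (9.21, 6.91 and 10.01 FPKM) and read 17.3, 20.7 and 9.36 in injured WT. KO control libraries read 22.5, 18.6 and 27.7 and KO IRI libraries 40.05, 31.4 and 46.6. Each KO group lay above the WT group of the same condition, and every KO IRI library lay above every other library. Averaged over condition Gsr rose in KO by 1.01 ± 0.16 (SE, adjusted p = 0.0318), from 12.3 ± 5.45 to 31.2 ± 10.6 FPKM (SD, n = 6). With 1 library left out the difference was 0.91 to 1.09 and passed in 4 of 12 fits (without WT control 3, WT IRI 2, WT IRI 3 or KO control 2). Without the 3 libraries it was 1.01 ± 0.16 (SE, adjusted p = 0.0837), and as deposited 1.31 ± 0.20 (SE, adjusted p = 0.0193).

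Gsr rose after IRI by 0.82 ± 0.16 (SE, adjusted p = 0.00764) averaged over genotype, passing in 12 of 12 fits with 1 library left out, as deposited, and without the 3 libraries (0.93 ± 0.16 SE, adjusted p = 0.0172). The difference was 0.80 ± 0.22 (SE, adjusted p = 0.0594) in WT and 0.85 ± 0.22 (SE, adjusted p = 0.0880) in KO. The interaction was 0.051 ± 0.32 (SE, adjusted p = 0.992), and −0.36 ± 0.31 (SE, adjusted p = 0.983) without the 3 libraries. KO IRI 3, the highest library for Gclc and Gsr, also had the highest summed level of 10 proximal tubule markers (293 FPKM, against 5.67 to 169 elsewhere). Without KO IRI 3, the KO rise averaged over condition missed the threshold, at 0.94 (adjusted p = 0.0678) for Gsr and 0.87 (adjusted p = 0.0918) for Gclc. Most fits with 1 library left out missed it for both genes. KO control 2 had the next highest tubule sum (169 FPKM) and, as deposited, the lowest Gclc and Gsr of the KO libraries. After rescaling it was still the lowest for Gclc, but KO control 1 was lowest for Gsr (16.9, against 18.6 in KO control 2). Without KO control 2 both genes passed. The part of tubule RNA in these results was not tested.

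Gpx1 (ENSMUSG00000063856.7, chromosome 9, 108338903 to 108340343, plus strand) encodes the main cytosolic glutathione peroxidase and was the most abundant member, with a mean of 60.1 FPKM. It read 46.5, 36.9 and 63.3 FPKM in WT controls and 111, 59.9 and 76.2 in KO controls, and these groups overlapped. After IRI it read 41.3, 49.4 and 25.8 in WT and 69.5, 67.4 and 74.4 in KO. There every KO library was above every WT library, also after rescaling. KO minus WT averaged over condition was 0.50 ± 0.16 (SE, adjusted p = 0.116), which did not pass, against 0.81 ± 0.21 (SE, adjusted p = 0.0372) as deposited, which did. IRI minus control was −0.18 ± 0.16 (SE, adjusted p = 0.510), and 0.067 ± 0.11 (SE, adjusted p = 0.762) without the 3 libraries.

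Gpx4 (ENSMUSG00000075706.10, chromosome 10, 80047166 to 80056439, plus strand) encodes the phospholipid hydroperoxide peroxidase that guards cells against ferroptosis. It read 13.1, 10.4 and 21.3 FPKM in WT controls, 15.04, 10.2 and 14.5 in injured WT, 23.9, 12.9 and 17.4 in KO controls and 14.9, 16.1 and 12.8 in injured KO. All 4 groups overlapped, with WT control 3 and KO control 1 the highest libraries. The averaged differences were −0.088 ± 0.19 (SE, adjusted p = 0.825) between genotypes and −0.11 ± 0.19 (SE, adjusted p = 0.752) after IRI, and the sign between genotypes turned as deposited (0.21 ± 0.20 SE, adjusted p = 0.450) and without the 3 libraries (0.09 ± 0.15 SE, adjusted p = 0.779). Since 37.6% of its 36-base words also occur in other transcripts, mainly the pseudogene Gpx4-ps2, its level is uncertain.

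Gstp1 (ENSMUSG00000060803.5, chromosome 19, 4035407 to 4037985, minus strand) encodes the pi-class transferase, which couples glutathione to electrophiles. Its promoter stretch is shown because it holds the stricter NRF2-MAF core TGANTCAGC while no difference between genotypes passed for the gene. The sequence is from RefSeq on GRCm38.p6, chr19:4037938-4038026 on the minus strand, bases −114 to −26, with the match in capitals.
Gstp1: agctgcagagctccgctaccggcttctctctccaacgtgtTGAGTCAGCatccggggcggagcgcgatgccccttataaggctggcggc
The match begins at −74 from the RefSeq start, and 1.19% of the 32851 windows held TGANTCAGC on either strand, a core whose form with C in place of N also matches TGACNNNGC. By the gene coordinates above, the match (4037978 to 4037986) instead spans the first bases of the gene. The 2 sources thus place the start differently, and part of the printed stretch lies inside the gene by those coordinates. The windows of Gss, Gpx1, Gpx4 and Gsto1 held none of these 3 cores in these letters. Promoters of Gclc, Gsr and Abcc1 were not analysed here.

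Gstp1 read 4.03, 3.71 and 8.52 FPKM in WT controls and 2.84, 2.54 and 4.67 in injured WT. In KO it read 8.64, 4.82 and 9.50 in controls and 6.81, 3.13 and 5.07 after IRI, and groups overlapped between genotypes and between conditions. KO minus WT averaged over condition was 0.18 ± 0.25 (SE, adjusted p = 0.710), 0.45 ± 0.25 (SE, adjusted p = 0.204) as deposited and 0.50 ± 0.21 (SE, adjusted p = 0.281) without the 3 libraries, where the unadjusted p in limma was 0.0477. IRI minus control averaged over genotype was −0.45 ± 0.25 (SE, adjusted p = 0.280). Transcripts of the near-identical Gstp2 share 37.2% of its 36-base words, so reads of the pair may have been split, and Gstp2 itself was listed at a mean of 0.221 FPKM.

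Gsto1 (ENSMUSG00000025068.7, chromosome 19, 47854970 to 47864790, plus strand) encodes the omega-class transferase, which removes glutathione from protein thiols. It read 5.63, 3.59 and 1.70 FPKM in WT controls and 8.48, 8.77 and 3.32 in injured WT, which overlapped. KO control read 3.54, 4.29 and 6.13 and KO IRI 7.98, 7.87 and 10.8, which did not overlap. Averaged over genotype Gsto1 rose after IRI by 0.85 ± 0.25 (SE, adjusted p = 0.04998), with an adjusted p just under the threshold. It passed in 2 of 12 fits with 1 library left out (without WT control 1 or WT IRI 3; adjusted p from 0.0270 to 0.120), and the call was lost as deposited (0.79 ± 0.27 SE, adjusted p = 0.101) and with quantile normalization (0.82 ± 0.26 SE, adjusted p = 0.0608), and kept without the 3 libraries (0.72 ± 0.17 SE, adjusted p = 0.0446). KO minus WT was 0.12 ± 0.25 (SE, adjusted p = 0.811), and without the 3 libraries −0.083 ± 0.17 (SE, adjusted p = 0.821).

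Abcc1 (ENSMUSG00000023088.16, chromosome 16, 14361558 to 14475737, plus strand) encodes the pump that exports glutathione conjugates and oxidised glutathione. It read 13.4, 13.2 and 9.31 FPKM in WT controls and 15.7, 22.2 and 19.1 in injured WT. KO control read 52.6, 26.4 and 35.3 and KO IRI 35.5, 29.3 and 30.9. All 6 KO libraries lay above all 6 WT libraries, as deposited and after rescaling, where the lowest KO value was 26.3 and the highest WT value 25.3. Averaged over condition Abcc1 rose in KO by 0.83 ± 0.15 (SE, adjusted p = 0.0453), from 15.5 ± 4.60 to 35.0 ± 9.30 FPKM (SD, n = 6), and as deposited by 1.139 ± 0.18 (SE, adjusted p = 0.0207). With 1 library left out it was 0.74 to 0.90 and passed in 1 of 12 fits (without KO control 2, adjusted p = 0.0113), and without the 3 libraries it was 0.75 ± 0.12 (SE, adjusted p = 0.0941).

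In WT, Abcc1 stood higher after IRI without overlap (0.69 ± 0.21 SE, adjusted p = 0.0735), and in KO it did not (−0.10 ± 0.21 SE, adjusted p = 0.864). Without the 3 libraries the difference in WT was 0.42 ± 0.18 (SE, adjusted p = 0.264). The interaction of −0.79 ± 0.29 (SE, adjusted p = 0.906) did not pass. It had the lowest unadjusted p of the 10 genes (0.0225), but without the 3 libraries it was −0.36 ± 0.24 (SE, adjusted p = 0.974), and Gclc then had the lowest. KO minus WT was 1.23 ± 0.21 (SE, adjusted p = 0.141) in controls and 0.44 ± 0.21 (SE, adjusted p = 0.322) after IRI.

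Taking genotype over all members, in controls limma called 0 of 10 (5 at an unadjusted p under 0.05), where 0.0363% of all genes tested were called and 11.0% had such a p. Gclc, Gclm, Gsr and Abcc1 were higher in KO without overlap, as were 7.91% of all genes. The median difference of the 10 was 0.29, against 0.0142 over all genes. After IRI it called 0 of 10 (3 unadjusted), with 0.057% of all genes called and 16.5% at such a p. There Gclc, Gsr, Gpx1 and Abcc1 were higher in KO without overlap (11.8% of all genes), Slc7a11 was lower (12.4%), and the median was 0.32 against 0.019.

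Averaged over condition, 3 of 10 rose, where 0.55% of all genes were called and 0.378% rose. At an unadjusted p under 0.05 were 6 of 10 and 21.4% of all genes. Abcc1 was the member whose 6 KO libraries all lay above the 6 WT libraries after rescaling, as did 0.778% of all genes. The median of the 10 was 0.34 against 0.0353. With 1 library left out, 4 of 10 passed without KO control 2, 2 without WT control 3, 1 each without WT IRI 2 and WT IRI 3, and 0 without any other library. As deposited 5 of 10 rose (Gclc, Gclm, Gsr, Gpx1 and Abcc1), where 11.9% of all genes rose, so that this larger count stands against a far larger background. With quantile normalization none of the 10 passed, although Gclc (0.89 ± 0.17 SE, adjusted p = 0.0554) and Gsr (0.93 ± 0.16 SE, adjusted p = 0.0502) kept their sizes. Cd4 also differed between the genotypes, from 49.7 to 100.5 FPKM in WT libraries to 149 to 382 in KO libraries, and its part in these results was not tested.

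Markers of other cells stood apart by genotype too, in controls as deposited. The 7 B and plasma cell markers summed to 119 to 205 FPKM in WT controls and 334 to 1697 in KO controls. The 7 dendritic markers summed to 14.4 to 20.7 and 21.8 to 42.6, so that neither sum overlapped on that scale. The rescaling factor was 0.913 for WT control 1 (dendritic sum 20.7) and 1.22 for KO control 3 (21.8). After rescaling the dendritic sums of the controls thus overlapped, and those of B and plasma cells did not. After IRI both sums overlapped (40.02 to 61.6 in WT and 60.1 to 176 in KO for B and plasma cells, 10.98 to 13.1 and 11.5 to 16.3 for dendritic cells). Averaged over condition limma called 0 of the 7 B and plasma cell markers (3 at an unadjusted p under 0.05) and 0 of the 7 dendritic ones (0 at such a p), while 2 of 10 T cell markers rose in KO. Of all genes 0.55% were called, 0.378% rose and 21.4% were at such an unadjusted p. The part of these cells in the genotype results was not tested.

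**Figure D2:**
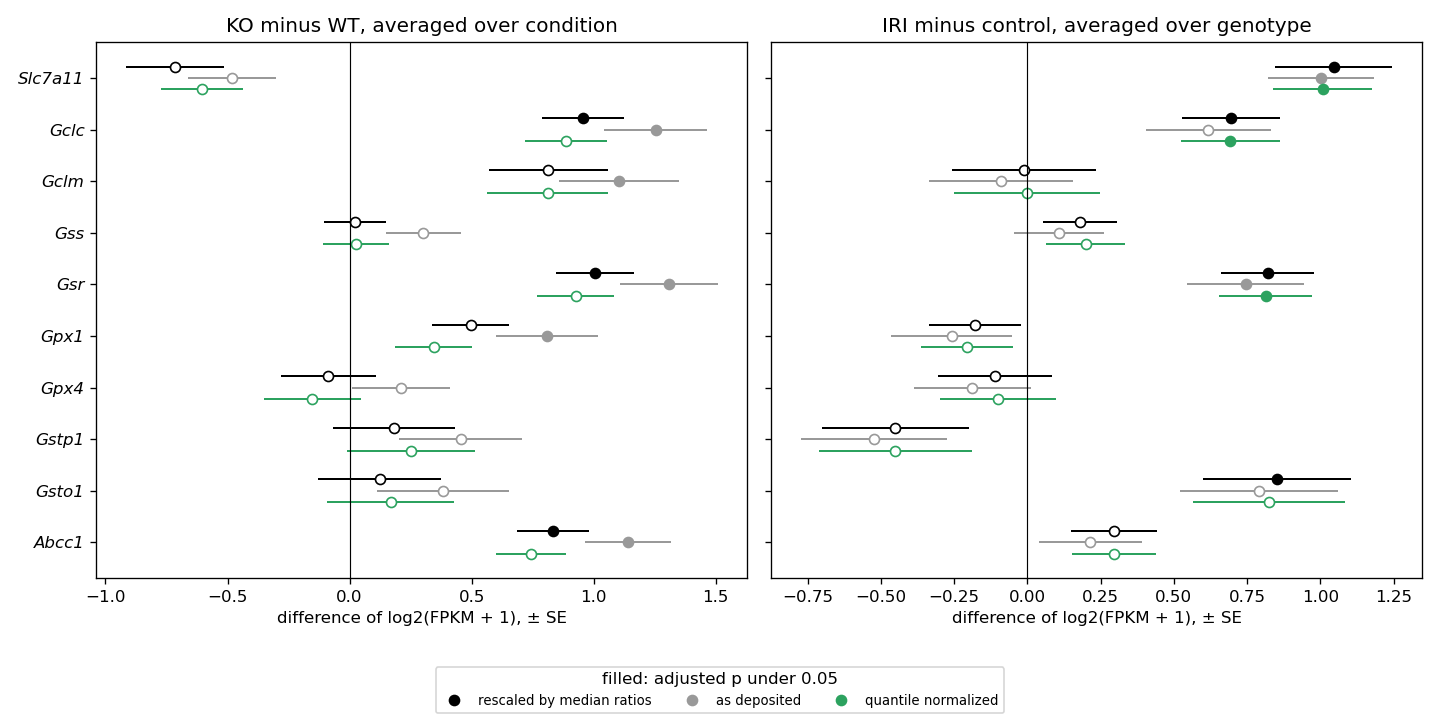
Difference of log2(FPKM + 1) with its standard error for the 10 genes, KO minus WT averaged over condition (left) and IRI minus control averaged over genotype (right), under 3 scalings, with filled points where the adjusted p was under 0.05. Gclc, Gsr and Abcc1 lay between 0.74 and 1.31 on the left under each scaling, Slc7a11 lay below 0 on the left and near 1 on the right, and Gclm lay near 0 on the right.

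For the injury comparison in WT, 1 of 10 rose (Gclc), where 3.26% of all genes rose and 7.94% were called, and 5 of 10 were at an unadjusted p under 0.05, as were 22.6% of all genes. Slc7a11, Gclc, Gsr and Abcc1 were higher after IRI without overlap, as were 12.8% of all genes, and the median was 0.52. In KO, limma called 0 of 10 (3 unadjusted), with 2.06% of all genes called and 16.4% at an unadjusted p under 0.05. Slc7a11, Gclc, Gsr and Gsto1 were higher there without overlap (12.0% of all genes), and the median was −0.03. Averaged over genotype 4 of 10 rose, where 6.35% of all genes rose and 13.7% were called, and the median was 0.24. The medians over all genes are not given for these injury comparisons, so the medians of the 10 stand without that background. The same 4 were those at an unadjusted p under 0.05, beside 27.3% of all genes. The genotype by IRI interaction had 0 of 10 called (1 unadjusted, Abcc1), with 0.00518% of all genes called and 4.87% at such a p.

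Markers of other cells moved with the injury comparison. Of 7 neutrophil markers 6 were tested and 3 rose after IRI in WT, as did 3.26% of all genes. The summed level of the 7 was 4.26 to 8.65 FPKM in WT controls, 19.1 to 38.9 in injured WT, 2.69 to 4.83 in KO controls and 3.77 to 33.4 in injured KO. Among these markers S100a8 was listed at 0 in WT control 1, WT control 3 and KO control 3. Ly6g read 4.09, 3.54 and 0.255 FPKM in WT controls and 0.936, 2.54 and 1.53 in injured WT. Ly6g, Csf3r, Cxcr2 and Mpo each overlapped between these groups. Within injured KO the neutrophil sums were 33.4, 10.7 and 3.77 FPKM, beside Slc7a11 at 5.64, 5.35 and 4.13. After rescaling Slc7a11 read 4.87, 5.11 and 3.78 there, so that the orders matched only as deposited. KO IRI 3 thus had the lowest neutrophil sum and the lowest Slc7a11 of the IRI libraries, while Gclc and Gsr were at their highest there. Within injured WT the neutrophil sums were 33.9, 38.9 and 19.1 FPKM, beside Slc7a11 at 5.52, 7.65 and 7.29. The lowest sum did not go with the lowest Slc7a11 in that group. Of 10 macrophage and monocyte markers 1 rose and 3 fell after IRI averaged over genotype (6.35% and 7.33% of all genes). Their sums were 83.3 to 177 FPKM in WT controls, 103 to 142 in injured WT, 162 to 350 in KO controls and 92.9 to 201 in injured KO. Of the 10 T cell markers 7 fell after IRI, averaged over genotype, as did 5 of 7 B and plasma cell, 5 of 7 CD8 and NK cell and 3 of 7 dendritic markers. In that comparison 7.33% of all genes fell. The summed B and plasma cell level was 119 to 205 FPKM in uninjured and 40.02 to 61.6 in injured WT, and 334 to 1697 in uninjured and 60.1 to 176 in injured KO. CD8 and NK cell markers summed to 25.8 to 30.6 and 12.3 to 17.5 in uninjured and injured WT, and to 29.1 to 49.9 and 9.69 to 14.05 in uninjured and injured KO. None of these 3 sums, dendritic included, overlapped between control and IRI in either genotype as deposited. WT IRI 3 (dendritic sum 12.7) had a rescaling factor of 0.755 and WT control 3 (14.4) of 0.921. After rescaling the dendritic sums thus overlapped in WT, while the other sums, and the dendritic sums in KO, did not. The part of these cells in the results was not tested.

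Ratios within a library do not depend on how libraries are scaled, and Gss was taken as the denominator after its values had been seen, so they are given without a test. Gss differed little between genotypes after rescaling (0.023), so these ratios mostly restate the numerators. The share of all genes whose ratio to Gss separates the groups in the same way was not counted. Gclc to Gss was 0.961, 1.45 and 1.48 in WT controls and 1.94, 2.43 and 1.48 in injured WT, and 2.57, 2.48 and 2.83 in KO controls and 3.45, 3.31 and 4.42 in injured KO. All 6 KO libraries were above all 6 WT libraries in this ratio, and all KO IRI libraries above all KO control libraries. Gsr to Gss was 1.36, 1.62 and 1.62 in WT controls and 1.88, 2.81 and 1.74 in injured WT, and 2.33, 2.61 and 3.29 and 5.56, 3.91 and 5.64 in the KO groups, with each IRI library above every control library of its genotype. Abcc1 to Gss ran from 1.51 to 3.54 in WT and from 3.65 to 5.44 in KO libraries.

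**Figure D3:**
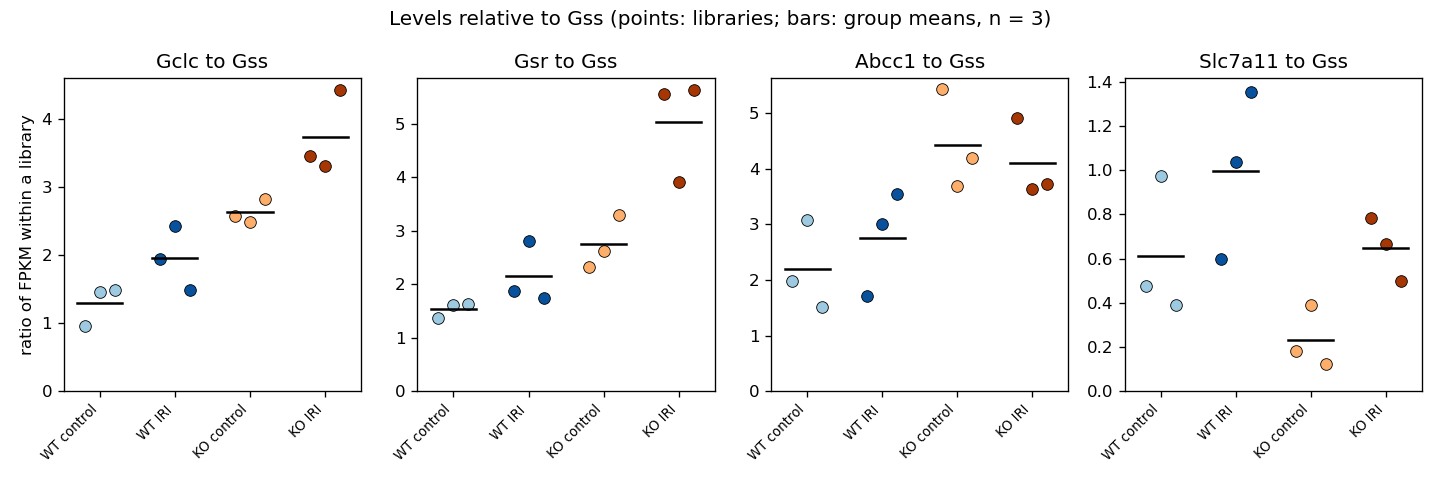
Ratio of the FPKM of Gclc, Gsr, Abcc1 and Slc7a11 to that of Gss within each library (vertical axes from 0), with points for libraries and bars for group means (n = 3). For Gclc and Abcc1 all 6 KO libraries lie above all 6 WT libraries, while Slc7a11 is lowest in KO controls (0.124 to 0.392). The share of all genes that separate in this way was not counted.

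Other pairs of partners were set side by side in the same way. Slc7a11 to Gss was 0.474, 0.975 and 0.388 in WT controls and 0.182, 0.392 and 0.124 in KO controls, and reached 0.599, 1.04 and 1.35 and 0.783, 0.666 and 0.500 after IRI. Slc7a11 to its heavy chain Slc3a2 was 0.0807, 0.0892 and 0.0427 in WT controls, 0.0928, 0.167 and 0.136 in injured WT, 0.0211, 0.0521 and 0.0174 in KO controls and 0.0906, 0.0758 and 0.0642 in injured KO. The transport subunit thus stood at 0.167 of the heavy chain or less in every library. Catalytic to modifier subunit, Gclc to Gclm, was 1.48, 0.936 and 1.88 in WT controls and 2.86, 4.92 and 0.945 in injured WT, and 1.65, 1.79 and 1.15 in KO controls and 1.39, 2.74 and 4.14 in injured KO. This ratio varied more within each IRI group than the 4 group means differed. Gpx1 to Gpx4 was 1.78 to 4.85 in WT libraries and 4.20 to 5.79 in KO libraries.

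Averaged over the 12 libraries the levels, which FPKM makes comparable per length, ran in the order Gpx1 (60.1 FPKM), Abcc1 (25.2), Gsr (21.7), Gclc (18.3), Gpx4 (15.2), Gclm (9.69), Gss (7.32), Gsto1 (6.01), Gstp1 (5.36) and Slc7a11 (4.24). Gpx1 was the highest of the 10 in every library. Over all libraries the ranges of every pair of neighbours in this order overlapped.

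The order differed between groups. Among WT controls Gpx4 (14.9 ± 5.68 FPKM; SD, n = 3) and Abcc1 (12.0 ± 2.31) followed Gpx1, while in injured KO it was Gsr (39.4 ± 7.62), Abcc1 (31.9 ± 3.23) and Gclc (29.3 ± 6.32).

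The profile of each ligase subunit was set against those of all other protein-coding genes tested, by the mean absolute gap between deviations from their own mean over the 12 libraries, on log2(rescaled FPKM + 1). Nearest to Gclc was Gsr, another member, with a gap of 0.15. It was followed by Lsm1 (0.23), part of the mRNA decapping machinery, Ndrg1 (0.25), Cpt1a (0.26), which brings fatty acids into mitochondria, and Fth1 (0.26), the ferritin heavy chain. Nearest to Gclm were Il2ra (0.23), the alpha chain of the interleukin 2 receptor, G6pdx (0.24), the first enzyme of the pentose phosphate pathway, Prkar2b (0.24), Acsbg1 (0.26) and Smim15 (0.26). Gclm ranked only 5274 among the neighbours of Gclc, with a gap of 0.57, and Slc7a11 ranked 10628, with a gap of 0.84. The profiles share libraries, depth and scaling.

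**Figure D4:**
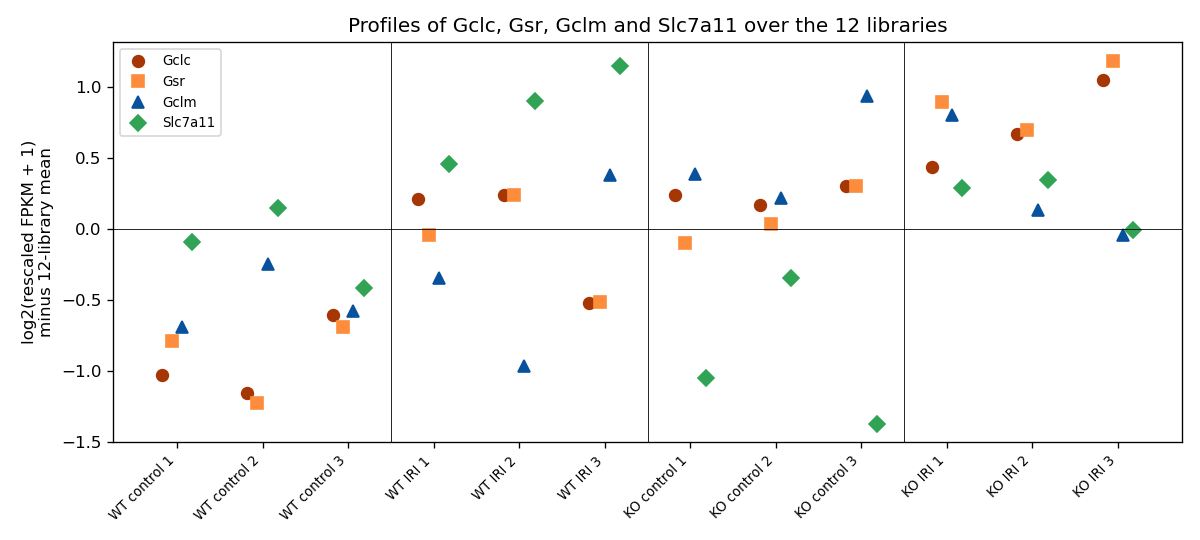
Deviation of Gclc, Gsr, Gclm and Slc7a11 from their own mean over the 12 libraries, in log2(rescaled FPKM + 1), with 1 marker per gene and library and vertical lines between groups. Over the 12 libraries the mean gap to Gclc is 0.15 for Gsr and 0.57 for Gclm, although in KO IRI 1 Gsr and Gclm both lie above Gclc, and Slc7a11 is lowest in KO controls.

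Of 65 other glutathione genes listed, 44 were tested and the rest had means under 1 FPKM. In cysteine supply 4 of 7 were tested, and 1 passed: Slc1a5, a glutamine carrier, fell after IRI averaged over genotype by −0.48 ± 0.14 (SE, adjusted p = 0.0482). The heavy chain Slc3a2 (57.9 FPKM on average over libraries) and Mat2a (77.4), which makes S-adenosylmethionine upstream of transsulfuration, did not pass, with 0.066 ± 0.13 (SE, adjusted p = 0.800) and 0.13 ± 0.13 (SE, adjusted p = 0.583) for KO minus WT averaged over condition. For breakdown, 10 of 12 were tested. Ggct, the gamma-glutamyl cyclotransferase, fell after IRI by −0.99 ± 0.15 (SE, adjusted p = 0.00201) averaged over genotype and by −1.30 ± 0.21 (SE, adjusted p = 0.00577) in WT, where it read 8.92, 9.46 and 10.6 FPKM in controls and 3.35, 2.55 and 3.81 after IRI. The other breakdown genes, led in level by Ggt5 (14.2 FPKM), Cndp2 (11.9), Oplah (7.72) and Ggt1 (6.91), did not pass.

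Among 6 other peroxidases Gpx3 alone was tested, and it did not pass. Its highest values, 55.3 FPKM in KO IRI 3 and 19.1 in KO control 2, lay in the 2 libraries with the highest sums of proximal tubule markers, cells known for making Gpx3. Of 24 other transferases 13 were tested. Mgst1, a microsomal transferase, rose after IRI averaged over genotype by 1.25 ± 0.36 (SE, adjusted p = 0.0458), and Gstp3 fell by −0.80 ± 0.16 (SE, adjusted p = 0.00795). Mgst1 was low in most libraries and listed at 0 in WT control 3. After rescaling Mgst1 read 0.122, 0.358 and 0 FPKM in WT controls and 2.65, 1.15 and 0.326 in injured WT, which overlapped. In KO it read 0.438, 0.700 and 0.542 in controls and 1.01, 5.54 and 6.66 after IRI. Gstp3 read 11.6, 12.8 and 10.2 FPKM in WT controls, 6.31, 6.49 and 7.04 in injured WT, 22.8, 15.7 and 28.2 in KO controls and 14.1, 9.56 and 7.32 in injured KO. Mgst2 (24.0 FPKM), Gstt2 (13.3) and Gstz1 (5.23) did not pass, nor did Hpgds (3.28).

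All 8 glutaredoxin, glyoxalase and formaldehyde genes were tested, and Glrx passed. Glrx, the cytosolic glutaredoxin that uses glutathione to free protein thiols, read 29.3, 35.9 and 40.03 FPKM in WT controls and 20.2, 15.8 and 15.8 in injured WT. In KO it read 71.0, 44.1 and 59.0 in controls and 51.3, 36.7 and 38.7 after IRI. Within each condition all KO libraries were higher, also after rescaling, as were 7.91% (controls) and 11.8% (IRI) of all genes on that scale. Glrx rose in KO averaged over condition by 0.66 ± 0.11 (SE, adjusted p = 0.0400), and fell after IRI by −0.63 ± 0.11 (SE, adjusted p = 0.00461) averaged over genotype and by −0.93 ± 0.16 (SE, adjusted p = 0.00678) in WT. Glrx was thus higher in KO, as Gclc and Gsr were, and lower after IRI, where those were higher. Adh5 (23.7 FPKM), Esd (20.5), Glrx3 (14.7) and Glrx2 (13.2) did not pass.

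In transport 8 of 8 were tested. Abcc4, another exporter of the Abcc family, fell after IRI by −0.67 ± 0.12 (SE, adjusted p = 0.00605) averaged over genotype and by −0.84 ± 0.18 (SE, adjusted p = 0.0183) in WT, while Abcc10 rose by 0.52 ± 0.13 (SE, adjusted p = 0.0284) averaged over genotype. Abcc5 (15.5 FPKM), Slc25a40 (14.8) and Slc25a39 (11.2), the latter known as a mitochondrial glutathione carrier, did not pass, nor did Abcg2 (5.46). Over the 44 genes together, 1 rose in KO averaged over condition (0.378% of all genes rose), and 2 rose and 5 fell after IRI averaged over genotype (6.35% and 7.33% of all genes). The median difference of the 44 was 0.17 between genotypes and 0.05 after IRI, and the median over all genes is given above for genotype only. As deposited, 6 rose in KO and none fell (Cndp2, Gstp3, Gstt2, Glrx, Glo1 and Abcc5), beside 11.9% of all genes.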

How the data were processed

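RNA of flow-sorted kidney CD4 T cells (1 ng per library, SMARTer stranded total RNA kit for low input) was sequenced as 36 bp pairs, per the labels' protocols. The authors deposited 1 FPKM value per gene and library, per the file headers. Tools listed, per the submitters' processing notes, are Cufflinks 2.2.1, TopHat2 2.1.0, Partek 7.0 and bcl2fastq 2.17.1.14, with the build GRCm38. The annotation, strand setting and scaling between libraries are not given in the sources used here. Depth is unknown: the steps between low values gave no stable relative depth (121 of 220 library triples were off by over 0.1 on the log2 scale).

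Of 12 columns 0 were unmapped. Libraries were rescaled by median ratios over 16018 genes above 0 in all 12 (factors 0.755 to 1.34), and genes averaging 1 FPKM or more were fitted on log2(rescaled FPKM + 1) with limma 3.58.1 in R 4.3.3 (1 mean per group, mean-variance trend, 8 residual degrees of freedom, Benjamini-Hochberg adjustment). The fit was tested on simulated data. Symbols and coordinates are from GENCODE mouse release 21 and promoter windows from RefSeq (GRCm38.p6), with 7 of 10 members matched. Shares of 36-base words were counted in the GENCODE transcripts.

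Members, lists and motifs were chosen with earlier results of these data known. Named were all members, the glutathione genes past the threshold in any comparison with up to 4 more per list by highest mean, and the 5 nearest profiles of Gclc and of Gclm. Ratios, and the motifs searched, were chosen after values or sequences had been seen. Alternatives were the values as deposited, quantile normalization, a pseudocount of 0.1, no filter, a replicate block, leaving out each library or 3 libraries together, and, added after seeing the data, protein-coding genes only.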

Additional observations from a re-analysis of the deposited data

How the results depend on the processing

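The 10 members in 7 comparisons had 1330 values under the alternatives, of which 1163 kept direction and call, 76 lost a call, 16 gained one and 75 changed sign. For KO against WT averaged over condition, 3 members were called, against 5 as deposited and 0 each with quantile normalization, with no filter, with a replicate block and without the 3 libraries that stand apart (KO control 1, WT IRI 3 and WT control 3), and 0 to 4 with 1 library left out. In controls alone 1 was called with protein-coding genes alone, and 0 to 1 (without KO control 2) with 1 library left out. For IRI in WT, 1 was called, against 0 as deposited, 0 with no filter, 0 with the block, 3 with quantile normalization, 4 with protein-coding genes alone and 0 to 2 with 1 library left out (2 without WT IRI 3). For IRI in KO, 2 were called with protein-coding genes alone and 0 to 1 with 1 library left out. Averaged over genotype, 4 were called, against 2 as deposited, 2 with no filter, 3 each with quantile normalization (Gsto1 lost), with a pseudocount of 0.1 and without the 3 libraries, and 2 to 4 with 1 library left out (2 without WT control 2, WT IRI 1, WT IRI 2, KO control 1 or KO IRI 3). The cause of these shifts was not tested.

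Over all genes, the number called for KO against WT averaged over condition was 106, against 2639 as deposited, 54 with quantile normalization, 38 with no filter, 29 with the block, 61 without the 3 libraries, 340 with protein-coding genes alone and 22 to 1330 (the latter without KO control 2) with 1 library left out. In controls it was 7 (32 without the 3 libraries, 13 with protein-coding genes alone, 504 without KO control 2), after IRI 11 (0 with the block, 20 without the 3 libraries, 28 with protein-coding genes alone, 2 to 20 with 1 library left out), and for the interaction 1 (27 without the 3 libraries). For IRI in WT it was 1531 (729 as deposited, 789 with no filter, 718 without the 3 libraries), in KO 398 (167, 144 and 119 in the same order, 860 with protein-coding genes alone, 111 to 649 with 1 library left out), and averaged over genotype 2639 (1744 as deposited, 1597 with no filter).

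All sign changes were of differences that did not pass. As deposited, the sign turned to 0.28 for Gpx4 in KO minus WT in controls, 0.11 for Gss and 0.15 for Gpx4 in KO minus WT after IRI, 0.21 for Gpx4 in KO minus WT averaged, −0.084 for Gss in IRI minus control in KO, and −0.013 for Gstp1 in the interaction. With quantile normalization, the sign turned to −0.042 for Gsr in the interaction. Without the filter on low values, the sign turned to 0.081 for Gpx4 in KO minus WT in controls, 0.028 for Gpx4 in KO minus WT averaged, and −0.053 for Gss in IRI minus control in KO. Without the 3 libraries that stand apart, the sign turned to 0.12 for Gpx4 and −0.035 for Gsto1 in KO minus WT in controls, 0.055 for Gpx4 and −0.13 for Gsto1 in KO minus WT after IRI, 0.090 for Gpx4 and −0.083 for Gsto1 in KO minus WT averaged, −0.19 for Gclm, 0.073 for Gpx1 and 0.033 for Gpx4 in IRI minus control in WT, 0.061 for Gpx1 and 0.059 for Abcc1 in IRI minus control in KO, 0.067 for Gpx1 in IRI minus control averaged, and −0.36 for Gsr, −0.012 for Gpx1 and −0.10 for Gsto1 in the interaction. With protein-coding genes alone, the sign turned to −0.044 for Gss in KO minus WT averaged and 0.0067 for Gclm in IRI minus control averaged. With 1 library left out, some ranges crossed 0. For KO minus WT in controls these were −0.28 to 0.24 for Gpx4, −0.038 to 0.50 for Gstp1 and −0.25 to 0.41 for Gsto1. For KO minus WT after IRI these were −0.35 to 0.052 for Gpx4 and −0.13 to 0.32 for Gsto1. For KO minus WT averaged these were −0.074 to 0.083 for Gss, −0.21 to 0.054 for Gpx4 and −0.049 to 0.28 for Gsto1. For IRI minus control in WT these were −0.16 to 0.52 for Gclm and −0.29 to 0.22 for Gpx4. For IRI minus control in KO these were −0.037 to 0.093 for Gss, −0.17 to 0.064 for Gpx1 and −0.22 to 0.062 for Abcc1. For IRI minus control averaged these were −0.19 to 0.15 for Gclm and −0.23 to 0.030 for Gpx4. For the interaction these were −0.053 to 0.46 for Slc7a11, −0.15 to 0.23 for Gsr, −0.014 to 0.40 for Gpx1, −0.38 to 0.14 for Gpx4, −0.31 to 0.35 for Gstp1 and −0.26 to 0.40 for Gsto1.

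Replicate numbers paired the libraries weakly at most. Same-numbered libraries of different groups correlated in their deviations at −0.034 to 0.21, with 1 of 18 over 0.1. Those of different number correlated at −0.15 to 0.12, with 1 of 36 over 0.1. Of the 12 libraries, 7 were closest to their own number among the 3 numbers. Whether libraries of one number shared a batch was not tested. With the number as a replicate block, members called were 0 in each genotype comparison and in IRI within each genotype, and 3 for IRI averaged over genotype (Gclc, Gsr and Slc7a11). FPKM carries no depth, so counting error could not be given for any member, the lowest (Slc7a11, Gstp1 and Gsto1) included.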
